A study of Mus musculus with 8 samples.

Results

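The let-7 family was examined in mouse kidney 24 h after lipopolysaccharide (LPS), an outer-membrane glycolipid of Gram-negative bacteria used to model septic acute kidney injury. Members were the non-control rows of the arrays named mmu-let-7a-5p, mmu-let-7b-5p, mmu-let-7c-5p, mmu-let-7d-5p, mmu-let-7e-5p, mmu-let-7f-5p, mmu-let-7g-5p, mmu-let-7i-5p or mmu-miR-98-5p, which gave 9 of the 1881 miRNAs on the array. The prefix mmu, for mouse, is left out from here on. Total RNA from 30 mg of kidney was labelled with Cy3 and hybridised to one-colour Agilent miRNA arrays. In the LPS group, 4 samples (numbered 6, 10, 11 and 12) came from mice injected into the peritoneal cavity with LPS at 10 µg per g of body weight. In the sham group, 4 samples (numbered 5, 6, 7 and 8) came from mice given normal saline in the same way. Both groups were taken 24 h after injection, and no label used here gives the mice's strain, age or sex. Whether each sample came from its own mouse is not said either, so the spread behind the p-values is that between samples and may be technical. The tissue is whole kidney, in which fewer cells of a type and less of a miRNA per cell cannot be told apart.

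Mature miRNAs guide Argonaute proteins to messenger RNAs, mainly through bases 2 to 8, the seed. The let-7 family shares one seed, is transcribed from many loci and accumulates as cells differentiate, and the RNA-binding protein LIN28 blocks the processing of most of its precursors. Targets described for the family include Lin28a itself, Hmga2, Ras genes and the cytokine gene Il6. Both let-7i and let-7e have been described to target Tlr4, the receptor for LPS.

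The mature sequences from RefSeq (GRCm38.p6) are shown because the members differ at few bases, which bears on what each probe can bind. The seed is in capitals.
let-7a-5p: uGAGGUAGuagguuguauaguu
let-7c-5p: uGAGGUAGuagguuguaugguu
let-7b-5p: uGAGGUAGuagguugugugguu
let-7f-5p: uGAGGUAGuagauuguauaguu
let-7e-5p: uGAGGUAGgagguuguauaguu
let-7d-5p: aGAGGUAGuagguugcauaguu
let-7g-5p: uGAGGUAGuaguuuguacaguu
let-7i-5p: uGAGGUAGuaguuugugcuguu
miR-98-5p: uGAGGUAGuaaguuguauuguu
All 9 members matched the RefSeq table, all were 22 bases long and all carried the same seed, GAGGUAG. Counted from 1 at the 5′ end, with the base of let-7a-5p first, let-7c-5p differed by A19G alone, let-7f-5p by G12A alone and let-7e-5p by U9G alone. Differences at 2 positions set apart let-7b-5p (A17G and A19G), let-7d-5p (U1A and U16C), let-7g-5p (G12U and U18C) and miR-98-5p (G11A and A19U). The member least like let-7a-5p was let-7i-5p, with G12U, A17G, U18C and A19U. Among 1679 mature names in the table, 11 had this seed, and the other two were let-7k and miR-1961.

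The RefSeq table listed 11 hairpin genes for the members on 7 chromosomes (GRCm38.p6). On the minus strand of chromosome 13, the mature let-7d-5p lay at chr13:48536078-48536099, let-7f-5p of Mirlet7f-1 at chr13:48537889-48537910 and let-7a-5p of Mirlet7a-1 at chr13:48538239-48538260, with 1715 and 262 bp between neighbouring hairpins. A second group held let-7c-5p of Mirlet7c-2 (chr15:85706616-85706637) and let-7b-5p (chr15:85707325-85707346), both on the plus strand. On the X chromosome, let-7f-5p of Mirlet7f-2 (chrX:151912353-151912374) and miR-98-5p (chrX:151913229-151913250) also shared the plus strand. Single loci were listed for let-7i-5p (chr10:122985698-122985719, minus strand), let-7g-5p (chr9:106178846-106178867, plus strand) and let-7e-5p (chr17:17830366-17830387, plus strand), and let-7c-5p had a further locus at chr16:77599672-77599693 (plus strand). Since let-7c and let-7f each have more than 1 hairpin in the table and the mature product is the same, the arrays read the sum of their loci. For let-7a-5p only the Mirlet7a-1 locus was listed. The array also held let-7a-2-3p, named for a further hairpin, Mirlet7a-2, so the loci given here for let-7a-5p are incomplete.

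Each array held 58594 spots. Between 15.8% and 17.5% of the 56430 non-control spots were well above background, and none was saturated. The arrays detected 336 to 375 miRNAs in sham and 342 to 359 in LPS kidneys. All 8 arrays were on 1 slide, sham in row 1 and LPS in row 2, and a difference between slide rows cannot be told apart from one between groups. Before scaling, the spike-in controls read 12.81 to 12.83 log2 units on sham arrays and 12.88 to 12.96 on LPS arrays, without overlap. The part of this offset in the differences below was not tested. All 5 kidney tubule markers were detected on every array, and the liver miRNA miR-122-5p on none. Of the tubule markers, 3 fell (miR-192-5p, miR-194-5p and miR-204-5p), and miR-10a-5p and miR-30a-5p were not called. Leukocyte markers were detected on every array (4 of 4), of which miR-223-3p and miR-155-5p rose. The others were not called, with a higher LPS mean for miR-142a-3p (0.26) and a lower one for miR-150-5p (-0.22). The summed signal of the leukocyte list ranged from 0.81 to 1.29 log2 units in sham and from 1.54 to 1.66 in LPS. Both red cell markers rose, with summed signals of -0.99 to 1.64 in sham and 1.01 to 3.78 in LPS kidneys. Among the other lists, 1 of 2 smooth muscle markers fell (miR-145a-5p), and 0 of 1 endothelial and 0 of 3 striated muscle markers were called. Over all miRNAs tested, 40.2% were called in either direction. The marker changes accompany every comparison below, and their part in the let-7 values was not tested.

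Signals are given as log2 of the summed signal of the probes of a miRNA scaled so that 0 is the array's own 75th percentile, taken over 551 probes above background throughout. All 9 members were detected on all 8 arrays, and all passed the filter on low values. The brightest was let-7a-5p, at 5.33 ± 0.05 in sham and 5.30 ± 0.05 in LPS kidneys (as below, the error is the SD over 4 arrays unless named as an SE), followed by let-7f-5p at 5.31 ± 0.05 and 5.29 ± 0.06. Next came let-7c-5p at 5.09 ± 0.07 and 5.09 ± 0.05, let-7b-5p at 4.69 ± 0.09 and 4.69 ± 0.06, and let-7g-5p at 4.29 ± 0.05 and 4.18 ± 0.03. Lower signals were read for let-7d-5p (3.62 ± 0.05 and 3.54 ± 0.03), let-7i-5p (2.70 ± 0.09 and 2.85 ± 0.07), let-7e-5p (2.06 ± 0.10 and 2.07 ± 0.09) and miR-98-5p (0.27 ± 0.03 and 0.17 ± 0.08). By this order of signal among all 1881 miRNAs, let-7a-5p, let-7f-5p, let-7c-5p and let-7b-5p ranked 6, 7, 8 and 10, and miR-98-5p ranked 93. Neighbours in the order were apart by more than the spread of their groups except let-7a-5p and let-7f-5p, which differed by 0.03 ± 0.01 log2 units within sham arrays and by 0.01 ± 0.02 within LPS arrays, with let-7f-5p the brighter on 1 LPS array. Read by the brightest probe of each miRNA alone, their order turned, with let-7f-5p at 23.7% of the family signal in both groups and let-7a-5p at 22.1% in sham and 21.8% in LPS kidneys. The order is one of signal, which also depends on how strongly each probe binds, and is not an order of molecules.

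**Figure D1:**
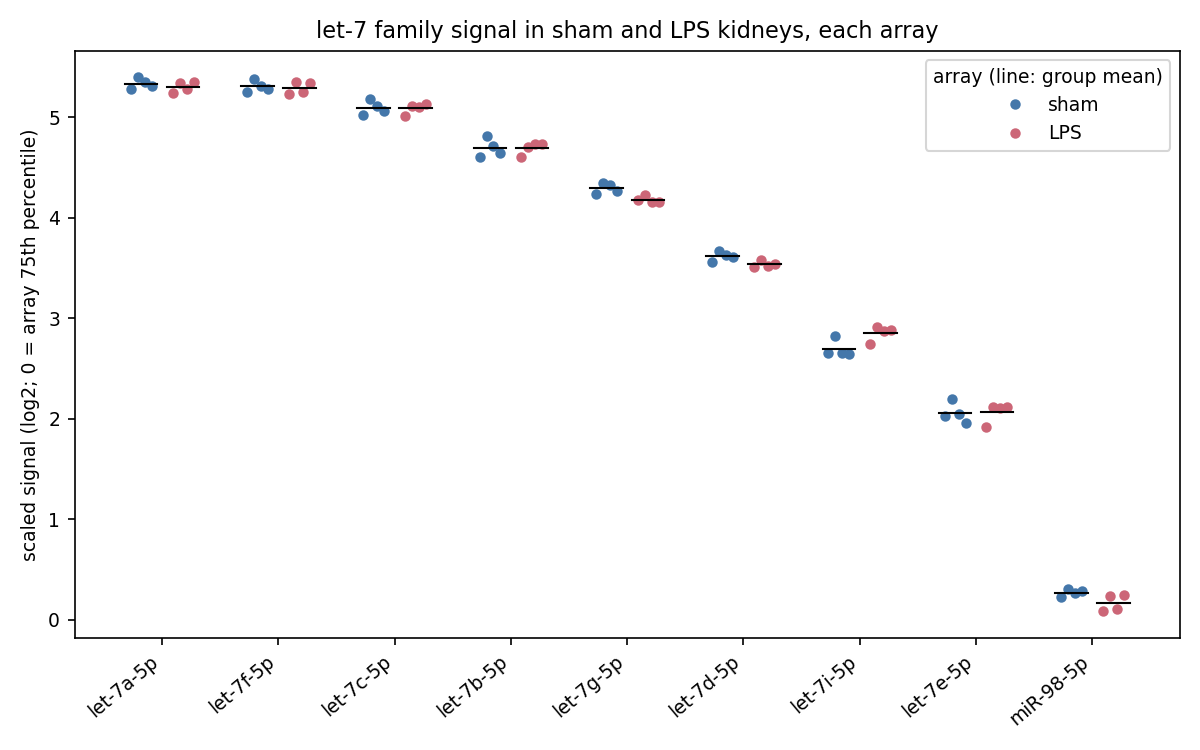
Scaled log2 signal of the 9 let-7 members (y axis, 0 is the array's 75th percentile) on each sham and LPS array, with a line at each group mean. Members span from about 0.2 for miR-98-5p to 5.3 for let-7a-5p, and sham and LPS points of a member lie close together compared with the distance between most members.

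No let-7 member passed the test between LPS and sham kidneys. In limma with Benjamini-Hochberg adjustment over the 338 miRNAs tested, 0 of 9 members were called at an adjusted p of 0.05, with 2 of 9 under an unadjusted 0.05 (let-7g-5p and let-7i-5p). Over all 338 miRNAs the same test called 136, or 40.2% (50 higher, 14.8%, and 86 lower, 25.4%). That split moved to 55 higher and 53 lower with the 75th percentile over all probes, 57 and 49 with no scaling, and 65 and 66 with cyclic loess. Leaving out 1 array kept the count of members at 0 in every case, while the count over all miRNAs went down to 85 without sham 6 and 88 without LPS 12.

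The mean was higher in LPS for 3 members and lower for 6, with a median difference of -0.01 log2 units against -0.08 over all miRNAs tested. This split turned to 6 higher and 3 lower with no scaling, cyclic loess, the 75th percentile over all probes and the deposited ratio table. Their medians were 0.064, 0.069, 0.044 and 0.022. It was 5 higher and 4 lower with the brightest probe and without sham 6 or LPS 6. Spike-in scaling, probes averaged on the log scale and the median of spots gave 1 higher and 8 lower. So did leaving out sham 5, sham 8, LPS 10 or LPS 12. Quantile normalization and leaving out LPS 11 gave 2 higher and 7 lower. The median was below 0 in 17 of 24 alternatives and above 0 in 7, so the family had no settled direction. The median size of the difference, whatever its sign, was 0.03 among members and 0.20 among all tested, and the median standard error was 0.06 against 0.08. The 95% intervals of the members held no change beyond 1.23-fold in either direction, with let-7i-5p setting that bound. With no scaling, let-7i-5p had a larger difference (0.23 ± 0.07, SE), so the bound holds only for the scaling used here. Of all tested miRNAs, 44.4% had a difference no larger than the largest in the family.

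**Figure D2:**
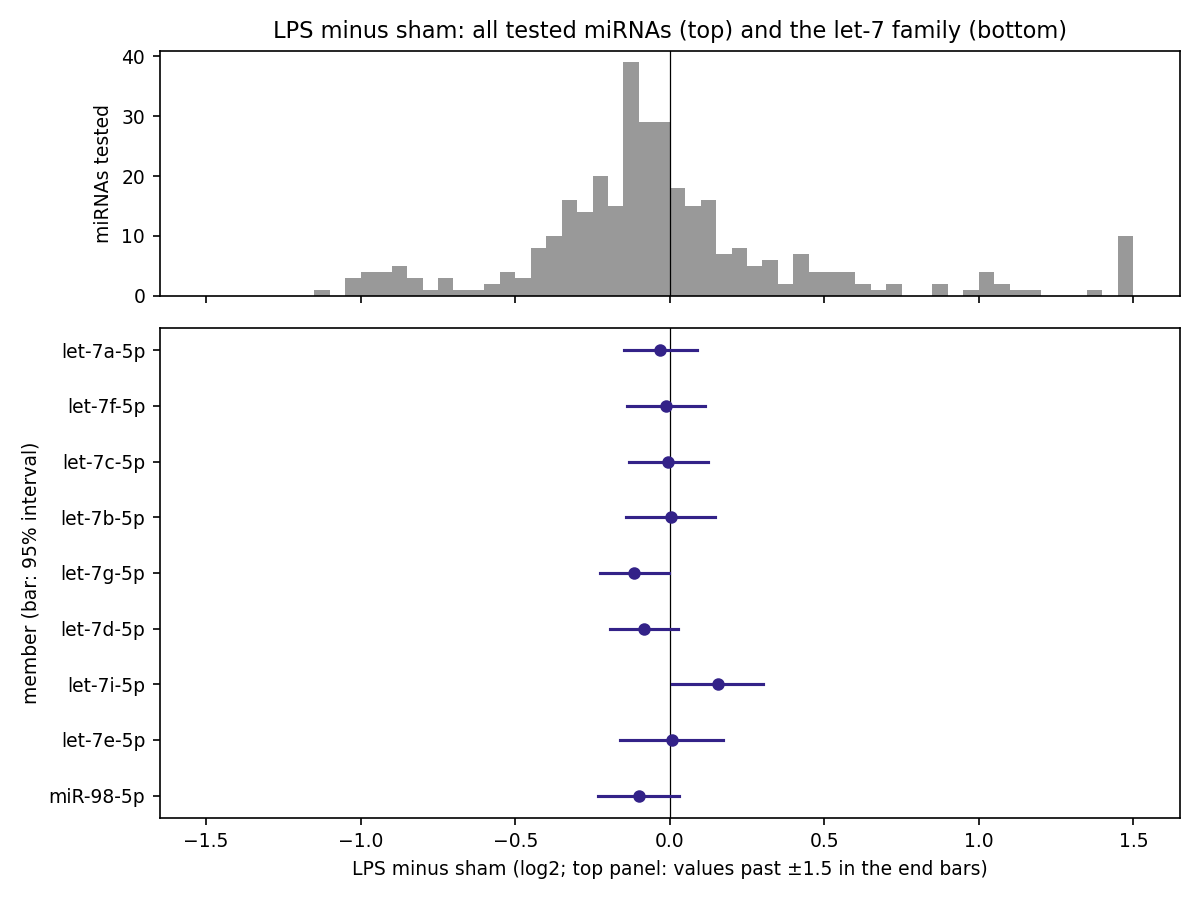
LPS minus sham on the log2 scale (x axis), as a histogram of the 338 miRNAs tested (top) and as point estimates with 95% intervals for the 9 members (bottom). The members lie between -0.11 and 0.16, within the central bulk of the histogram, and only the intervals of let-7g-5p and let-7i-5p leave out 0.

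The largest positive difference was that of let-7i-5p, which like let-7e-5p has been described to target the LPS receptor gene. It read 2.66, 2.83, 2.66 and 2.65 in sham kidneys 5, 6, 7 and 8, and 2.74, 2.91, 2.87 and 2.88 in LPS kidneys 6, 10, 11 and 12. All 4 LPS values lay above the sham mean, and the groups overlapped because sham 6 was above LPS 6. The difference was 0.16 ± 0.06 (SE; 95% interval 0.01 to 0.30), a fold of 1.11, with a limma adjusted p of 0.0892. It passed the threshold with no scaling (0.23, adjusted p = 0.0357), with cyclic loess (0.18, adjusted p = 0.016) and with normexp background correction (0.15, adjusted p = 0.0462). With spike-in scaling it did not pass (0.13, limma adjusted p = 0.126). Over all alternatives the adjusted p ranged from 0.016 to 0.337.

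The most negative difference was that of let-7g-5p, which is encoded by a single hairpin in the table. Its sham values were 4.24, 4.34, 4.33 and 4.27 and its LPS values 4.18, 4.23, 4.16 and 4.15. Every LPS value lay below every sham value, a separation that 37.0% of all tested miRNAs also had, and let-7g-5p was the only one of the 9 members with it. The difference was -0.11 ± 0.05 (95% interval -0.23 to -0.002), with a limma adjusted p of 0.0979. It passed with normexp (-0.11, adjusted p = 0.0481), with probes averaged on the log scale (-0.12, adjusted p = 0.0496) and with a trended, robust variance model (-0.11, adjusted p = 0.0473), and ranged from 0.0473 to 0.712 over the alternatives.

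Values of let-7d-5p, from the chromosome 13 cluster, were 3.56, 3.67, 3.63 and 3.61 in sham and 3.51, 3.58, 3.52 and 3.54 in LPS kidneys. All 4 LPS values were under the sham mean, but LPS 10 was above sham 5, and the difference was -0.08 ± 0.05 (adjusted p = 0.202). For miR-98-5p, the X-linked member with the dimmest signal, sham values were 0.22, 0.30, 0.27 and 0.28 and LPS values 0.09, 0.24, 0.11 and 0.25. Again all LPS values were below the sham mean with overlap between groups, and the difference was -0.10 ± 0.06 (adjusted p = 0.187).

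The remaining 5 members had means that were nearly equal in the groups. For let-7a-5p, the sham values of 5.28, 5.40, 5.35 and 5.31 and the LPS values of 5.24, 5.34, 5.28 and 5.35 covered almost one range, with a difference of -0.03 ± 0.05 (95% interval -0.15 to 0.09, adjusted p = 0.67). Its cluster neighbour let-7f-5p spanned 5.25 to 5.38 in sham and 5.23 to 5.35 in LPS kidneys, a difference of -0.01 ± 0.06 (adjusted p = 0.877). The chromosome 15 pair behaved likewise, let-7c-5p with 5.02 to 5.18 against 5.01 to 5.13 and let-7b-5p, described to target the TGF-β receptor gene Tgfbr1, with 4.60 to 4.81 against 4.60 to 4.73. Their differences were -0.004 ± 0.06 (adjusted p = 0.953) and 0.003 ± 0.06 (adjusted p = 0.962), and their 95% intervals reached from -0.13 to 0.12 and from -0.14 to 0.15. In let-7e-5p the arrays ranged from 1.95 to 2.20 in sham and from 1.92 to 2.12 in LPS kidneys, a difference of 0.006 ± 0.07 (95% interval -0.16 to 0.17, adjusted p = 0.953). The direction of let-7a-5p, let-7b-5p, let-7c-5p, let-7d-5p, let-7e-5p and let-7f-5p changed with the scaling, and quantile normalization called 3 of them lower (let-7a-5p by -0.17, let-7b-5p by -0.13 and let-7c-5p by -0.17, limma adjusted p = 0.00664, 0.0262 and 0.00112). Over all 338 miRNAs tested, the same normalization called 144, of which 91 were lower and 53 higher.

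Members also moved together from array to array within a group. Averaged over the 9 members, the deviation from the group mean was 0.08 log2 units in sham 6 and -0.06, 0.01 and -0.03 in sham 5, 7 and 8. It was -0.07 in LPS 6 and 0.04, -0.01 and 0.03 in LPS 10, 11 and 12. Sham 5 and LPS 6, in slide column 1, were thus the lowest of their groups, and sham 6 and LPS 10, in column 2, the highest. With this shared deviation removed, the spread of let-7a-5p within groups went from an SD of 0.05 to 0.02 and that of let-7b-5p from 0.08 to 0.03, whereas let-7g-5p kept 0.04. With slide column as a block, the differences of let-7i-5p and let-7g-5p were the same and their adjusted p-values were 0.0837 and 0.127.

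The share of each member in the summed family signal does not depend on the scaling between arrays. The summed signal itself was 7.52 ± 0.06 log2 units in sham and 7.50 ± 0.05 in LPS kidneys. It made up 8.39% ± 0.40 of the summed signal of all miRNAs in sham and 9.03% ± 0.32 in LPS kidneys, with overlapping ranges of 7.80% to 8.67% and 8.63% to 9.37%. Together, let-7a-5p, let-7c-5p and let-7f-5p held 62.1% ± 0.20 of the family signal in sham and 62.3% ± 0.41 in LPS kidneys.

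Singly, let-7a-5p held 22.0% ± 0.19 in sham and 21.8% ± 0.17 in LPS, let-7f-5p 21.6% ± 0.16 and 21.7% ± 0.39, let-7c-5p 18.6% ± 0.14 and 18.8% ± 0.20, and let-7b-5p 14.1% ± 0.30 and 14.3% ± 0.35. Smaller shares were held by let-7e-5p, with 2.27% ± 0.09 and 2.31% ± 0.09, and by miR-98-5p, with 0.657% ± 0.02 and 0.622% ± 0.02. In all 6 of these the groups overlapped.

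The share of let-7i-5p was 3.58%, 3.66%, 3.40% and 3.49% in sham 5, 6, 7 and 8 and 3.87%, 4.06%, 4.07% and 3.98% in LPS 6, 10, 11 and 12. Its groups did not overlap, with means of 3.53% ± 0.11 and 3.99% ± 0.09. For let-7g-5p the shares were 10.7%, 10.5%, 10.9% and 10.7% in sham and 10.5%, 10.1%, 9.95% and 9.59% in LPS kidneys. These groups met within 0.02 percentage points, and the means were 10.7% ± 0.16 and 10.0% ± 0.36. Shares of let-7d-5p were 6.71%, 6.58%, 6.68% and 6.81% in sham and 6.57%, 6.44%, 6.37% and 6.28% in LPS kidneys, apart by 0.01 percentage points at the nearest. Thus 2 of 9 members had shares that did not overlap between groups. Of all tested miRNAs, 33.7% did not overlap when set as a ratio to the same family sum. Without sham 6, the shares of let-7g-5p and miR-98-5p did not overlap either, which made 4 of 9, and the proportion over all tested miRNAs was then 39.1%.

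**Figure D3:**
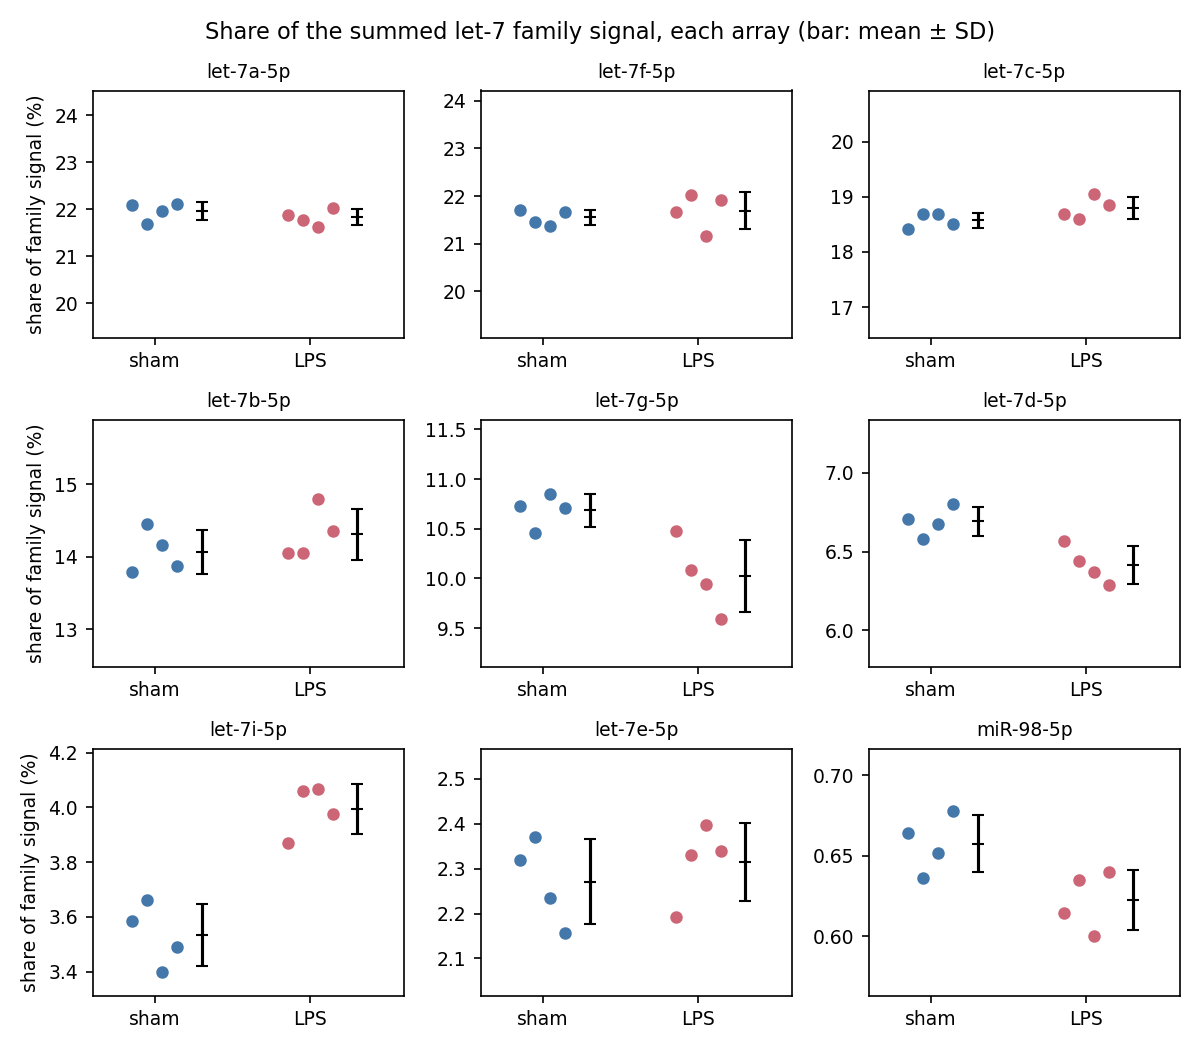
Share of the summed let-7 family signal (y axis, percent, each panel spanning 12% either side of its mean and so not starting at 0) on each array, with mean ± SD beside each group. The 4 LPS points of let-7i-5p (3.87% to 4.07%) are all above its sham points (3.40% to 3.66%), and those of let-7d-5p are just below theirs.

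Ratios between members on the same array restate the signals behind the shares and are not a further test of them. The log2 signal of let-7i-5p minus that of let-7g-5p was -1.58, -1.51, -1.67 and -1.62 in sham kidneys and -1.44, -1.31, -1.29 and -1.27 in LPS kidneys. It went from -1.60 ± 0.07 to -1.33 ± 0.07 with no overlap, the widest change among the 36 pairs of members, and the pair is named for that value. In all, 15 of 36 ratios did not overlap between groups, against 39.1% of the ratios of any 2 tested miRNAs, so the family as a whole was near that background. All 8 ratios with let-7i-5p were among the 15, as were 7 of the 28 without it. Those 8 share let-7i-5p and so are not separate observations. Within the chromosome 13 cluster, the ratio of let-7d-5p to let-7a-5p was -1.71 ± 0.01 in sham and -1.77 ± 0.03 in LPS kidneys without overlap. On the X chromosome, let-7f-5p minus miR-98-5p was 5.04 ± 0.03 and 5.12 ± 0.02, also without overlap. The chromosome 15 neighbours let-7b-5p and let-7c-5p kept a ratio of -0.40 ± 0.02 in sham and -0.39 ± 0.02 in LPS kidneys, with overlap.

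Each member was read by 2 probes of 15 spots, both ending at the last base of the miRNA, with the longer one reaching 1 base further towards its 5′ end. The let-7g-5p probes are shown with the longer probe for miR-3962, which differs from the shorter let-7g-5p probe in the base in capitals.
let-7g-5p shorter: aactgtacaaactactacct
let-7g-5p longer: aactgtacaaactactacctc
miR-3962 longer: aaAtgtacaaactactacct
Spots of a probe agreed closely, with a coefficient of variation of 1.001% to 9.67% on an array (median 3.33%), and 75 of 2160 member spots were outliers that were left out.

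The 18 probes were tested among 633, of which limma called 38.9%, and 1 of 18 passed, the shorter let-7g-5p probe. It read 2.88, 2.97, 2.95 and 2.91 in sham and 2.78, 2.82, 2.69 and 2.75 in LPS kidneys, and fell by 0.16 ± 0.05 on the log2 scale (SE, adjusted p = 0.0357). The longer let-7g-5p probe had a difference of -0.08 ± 0.05 (adjusted p = 0.223) with overlapping groups. The call was lost without sham 6, 7 or 8 or LPS 6, 11 or 12 (adjusted p = 0.0947, 0.0977, 0.0769, 0.057, 0.0812 and 0.0837) and held without sham 5 or LPS 10. It was also lost with the 75th percentile over all probes (-0.11, adjusted p = 0.267) and with no scaling (-0.09, adjusted p = 0.365). Apart from it, only the shorter let-7d-5p probe had groups that did not overlap (-0.13 ± 0.05, adjusted p = 0.0679), which 38.7% of all probes tested showed.

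Both let-7i-5p probes gave nearly one value, 0.15 ± 0.06 for the shorter and 0.16 ± 0.07 for the longer (adjusted p = 0.102 and 0.0857). The probes of 4 members differed in sign. In let-7c-5p the shorter read -0.07 ± 0.06 and the longer 0.03 ± 0.06, and in let-7e-5p -0.06 ± 0.07 and 0.05 ± 0.08. The other two were let-7b-5p (-0.02 ± 0.06 and 0.02 ± 0.06) and let-7f-5p (-0.05 ± 0.06 and 0.001 ± 0.06). None of these 8 probes passed the test. The longer probe had the higher difference in 8 of 9 members, by a median of 0.05 log2 units (range -0.007 to 0.11). Over all 249 miRNAs with such nested probes this held in 66.3%, with a median of 0.02.

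**Figure D4:**
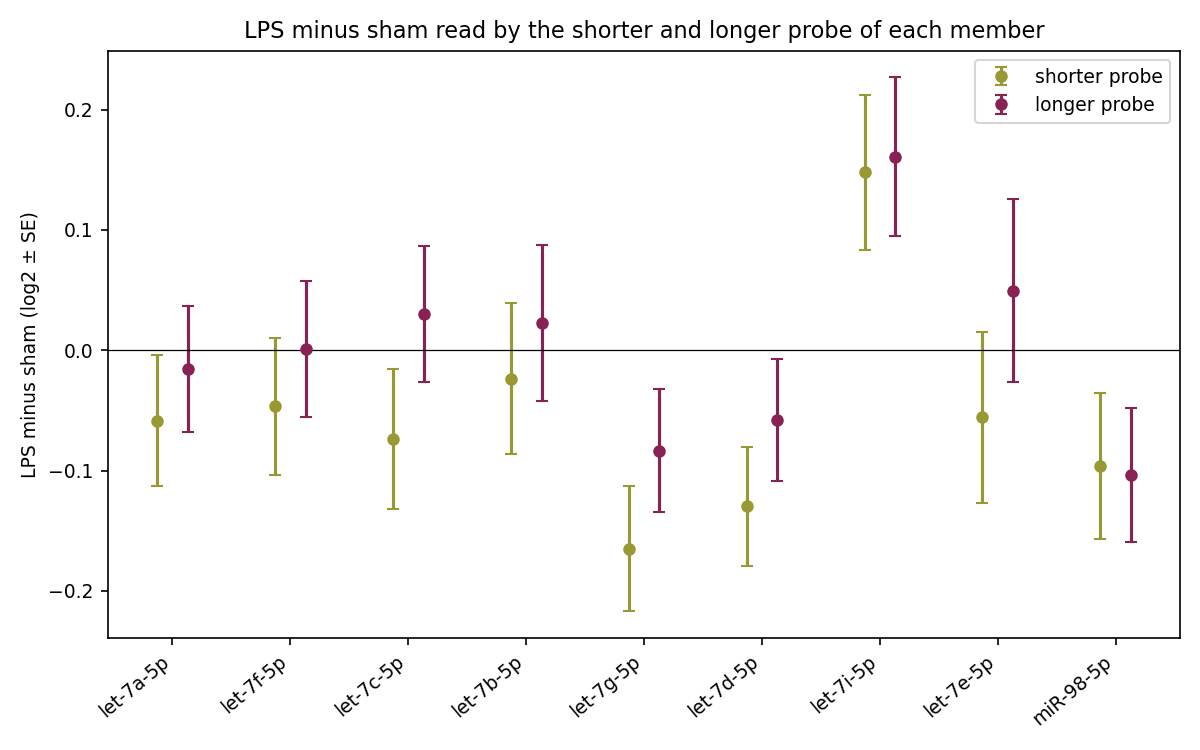
LPS minus sham on the log2 scale (y axis, ± SE) for the shorter and the longer probe of each member. Both probes of let-7i-5p lie near 0.15 and both of let-7g-5p and let-7d-5p below 0, while those of let-7b-5p, let-7c-5p, let-7e-5p and let-7f-5p fall on either side of 0.

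The probes were then set against the sequences of the other members, counting bases that do not pair over the stretch a probe covers. Of 144 combinations of a probe with another member, none paired without a mismatch, 20 had 1 mismatch, 48 had 2 and 76 had 3 or more. The 20 came from 5 of the 36 pairs of members (let-7a with let-7c, let-7d, let-7e and let-7f, and let-7b with let-7c). In 8 of the 20 the mismatch was a G opposite a U or a T opposite a G, a weak pair, as for the let-7a-5p probes on let-7c-5p at base 19. Probes of let-7g-5p, let-7i-5p and miR-98-5p had at least 2 mismatches to every other member. The difference U1A of let-7d-5p lay outside its probes, which began at base 4 or 5, so that U16C alone set them apart from let-7a-5p. How much signal the 6 members from let-7a-5p to let-7f-5p lend each other was not tested, and their separate values are uncertain to that degree. Nor was it tested for let-7g-5p, let-7i-5p and miR-98-5p, whose probes had 2 mismatches to some members. The miR-98-5p probes, 2 mismatches from let-7a-5p, read 216 to 380 before scaling, against 6666 to 14254 for the let-7a-5p probes.

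**Figure D5:**
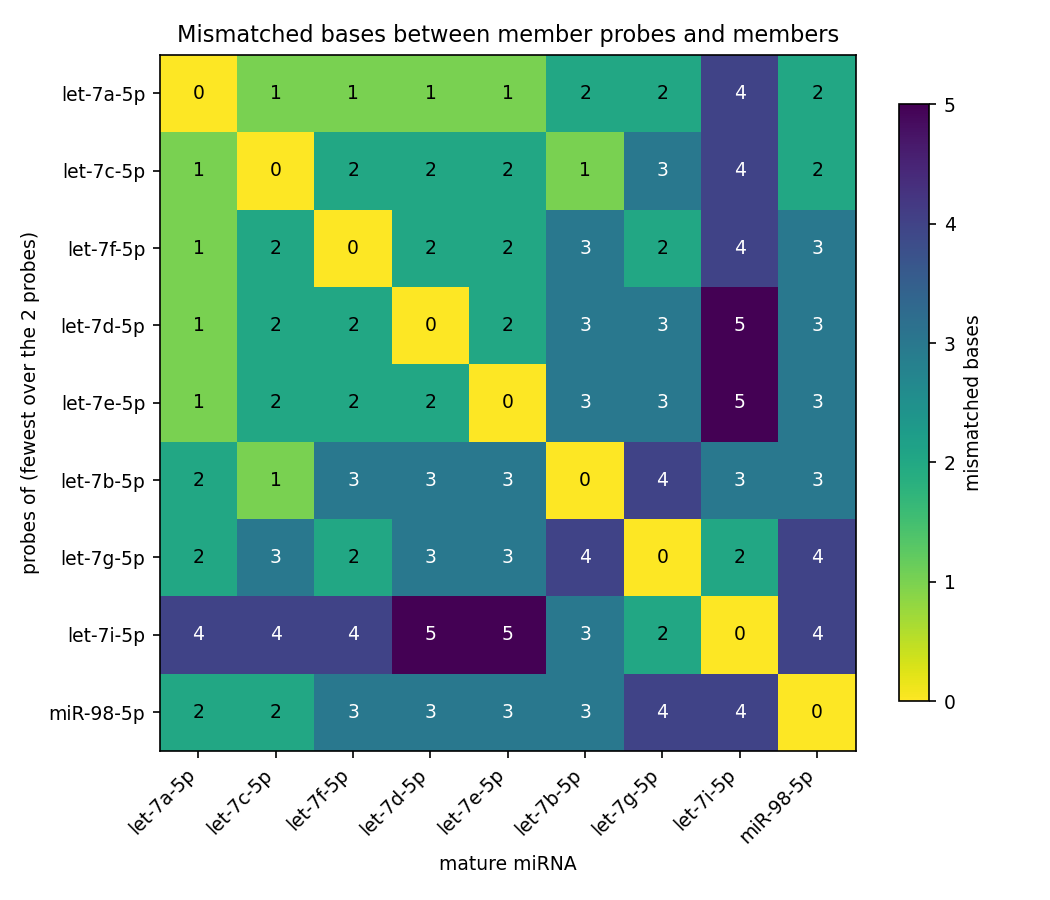
Fewest mismatched bases between the probes of one member (rows) and the mature sequence of another (columns). The 1s all lie among let-7a-5p to let-7f-5p, and the rows of let-7g-5p, let-7i-5p and miR-98-5p hold no value under 2 away from the diagonal.

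Shares were also taken over the 3 members whose probes had no match this close to another member. Their probes and ratios are those given above, so this is not a further test of let-7i-5p against let-7g-5p. Over let-7g-5p, let-7i-5p and miR-98-5p alone, the share of let-7i-5p was 23.8% in sham and 27.3% in LPS kidneys, that of let-7g-5p 71.8% and 68.5%, and that of miR-98-5p 4.42% and 4.25%. The groups of let-7i-5p and let-7g-5p did not overlap on this scale, and for let-7i-5p this follows from its ratios to the others. Such a separation was also seen in 39.1% of the ratios of any 2 tested miRNAs. With 3 members in the sum, the share of one falls as another gains.

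Probes made for other miRNAs but 1 mismatch from a member were found by their sequence, outside the rule for named miRNAs. In turn, the let-7g-5p probes were 1 mismatch from miR-3962, those of let-7i-5p from let-7j and those of let-7b-5p from let-7k. What these miRNAs lend the member probes was not tested. Both miR-3962 probes were 1 mismatch from let-7g-5p, at its base 20. The longer had an intensity of 33.3 to 38.2 before scaling and was above background on 8 of 8 arrays, while the shorter read 4.07 to 8.73 and was above background on none. Intensities of the let-7g-5p probes themselves ran from 3319 to 6312. For let-7i-5p, the probes of let-7j, which has the seed GAGGUAU and so a mismatch at base 8, read -0.90 to 3.85, against 1364 to 2265 for the let-7i-5p probes. The let-7k probes, with 15 or 16 bases and a mismatch to let-7b-5p at base 9, read -1.95 to 17.7, against 4978 to 8251 for the let-7b-5p probes. Neither let-7j nor let-7k was detected on any array. These values describe only the mismatches at bases 20, 8 and 9, none of which is a mismatch between members at 1 difference except that at base 9. The let-7j probes also had 2 unpaired bases, and the let-7k probes were shorter than those of let-7b-5p. For these probes the effect of the mismatch alone is therefore not isolated.

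Relatives of the family on the array numbered 20, of which 7 were tested and 1 was called. That was miR-202-3p, which has the seed GAGGUAU, which let-7j shares but the 9 members do not. It read -1.78, -1.70, -1.71 and -1.72 in sham and -1.97, -1.98, -2.04 and -2.001 in LPS kidneys, with no overlap. It fell by 0.27 ± 0.05 on the log2 scale (SE, limma adjusted p = 0.00259), and remained called in all 24 alternatives, with adjusted p-values of 0.00127 to 0.0432.

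The 3p arms, the opposite strands of the let-7 and miR-98 hairpins, were mostly below detection. Of 11 on the array, 8 were detected on no array, let-7b-3p on 1 array of each group and let-7f-1-3p on 2 of each. Only let-7a-1-3p was tested, with -3.28 ± 0.10 in sham and -3.38 ± 0.07 in LPS kidneys (difference -0.10 ± 0.07, adjusted p = 0.264). The seed relative miR-1961 was detected on no array.

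Partners that share primary transcripts with let-7c, let-7a and let-7e were not called either (0 of 5). Their differences were -0.07 ± 0.06 for miR-99a-5p, -0.05 ± 0.06 for miR-100-5p, 0.03 ± 0.08 for miR-99b-5p, -0.04 ± 0.07 for miR-125a-5p and 0.13 ± 0.09 for miR-125b-5p.

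The miRNAs outside the family whose profile over the 8 arrays came closest to the mean of the members were miR-200b-3p, miR-26b-5p and miR-181a-5p. Each profile was centred on its own mean, and likeness was the root-mean-square difference, which was 0.04 log2 units for each of the 3 against a median of 0.17 over 322 candidates. All 3 were highest in sham 6 among sham arrays, and none was called (differences of -0.08, -0.05 and -0.02, adjusted p = 0.35, 0.554 and 0.84). Both traits follow largely from the choice by likeness to the members over these same arrays. These likenesses describe 8 arrays that share one slide and one scaling.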

How the data were processed

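MicroRNAs were measured in 4 LPS and 4 sham kidney samples. The authors deposited spot intensities from Agilent Feature Extraction 12.0.3.1 (per the submitters' processing notes), background-subtracted and not scaled between arrays per the file headers. A deposited table holds 1 linear ratio per miRNA and array. Its column medians were 0.958 to 1.06, and after 1 factor per array and miRNA 100% of values of 306 miRNAs lay within 0.01 log2 of the scanner's total signal, so it is linear and centred per miRNA. No source used here says where its array factors come from. It served as an alternative.

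Outlier spots were dropped, spots averaged, arrays divided by their 75th percentile over 551 probes, probes of a miRNA summed, and sums floored (-4.68 on the log2 scale). A miRNA was detected where a share above 0.5 of the spots of any probe were well above background, and tested where detected on all arrays of a group. The fit was limma 3.58.1 in R 4.3.3 without covariates, 2-sided, with Benjamini-Hochberg adjustment over 338 miRNAs (or 633 probes) and a threshold of 0.05, and was tested on simulated data. The number of arrays limits the precision.

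Named were the 9 members, relatives detected on all arrays of a group, the 3 miRNAs with the most similar profile, and probes that disagree within a member. Probes were compared with RefSeq sequences. Members and lists were chosen with earlier results of these data known. Alternatives covered scaling, background, summary over probes, filter, floor, variance model, slide column, the ratio table and leaving out each array.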

Additional observations from a re-analysis of the deposited data

Results flagged for a closer look

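In 3 of 54 groups of 4 arrays examined, among members and tested relatives, 1 array stood far from the others by Dixon's ratio, and chance gives about 2.7. The log2 signal of let-7e-5p was 1.92 in LPS 6 and 2.11 to 2.12 in the other LPS kidneys. That of let-7i-5p was 2.83 in sham 6 and 2.65 to 2.66 in the other sham kidneys. The cluster partner miR-125b-5p read 3.04 in sham 6 against 2.75 to 2.79. Sham 6 and LPS 6 are also the arrays with the highest and lowest mean deviation of the family.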

How the results depend on the processing

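Over 24 alternatives, let-7i-5p stayed above 0 (0.13 to 0.23) and let-7g-5p and miR-98-5p below 0. The number of members called was 1 with no scaling, cyclic loess, log averaging of probes and the trended robust model. It was 2 with normexp, 3 with quantile normalization, and 0 on leaving out any 1 array. Over all 338 miRNAs, 106 were called with no scaling, 131 with cyclic loess, 137 with log averaging and 136 with the trended robust model. Normexp called 121 and quantile normalization 144. The median member difference was 0.064 with no scaling, 0.069 with cyclic loess, -0.091 with quantile normalization and -0.033 to 0.012 on leaving out 1 array. The count over all miRNAs was 60 without the filter, 80 with slide column as a block, and 85 to 152 on leaving out 1 array. Member probes called numbered 0 with the percentile over all probes, 2 with no scaling, 3 with normexp and 0 to 2 on leaving out 1 array. The share called over all 633 probes was taken only in the main fit (38.9%). Members whose shares did not overlap numbered 4 with the brightest probe and 2 to 4 on leaving out 1 array. For all tested miRNAs as a ratio to the family sum, the proportion was taken only in the main setting (33.7%) and without sham 6 (39.1%). With the brightest probe, the 4 members therefore have no such proportion to be set against. The cause of these shifts was not tested.

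Differences near 0 changed sign as follows. With the percentile over all probes, let-7a-5p was 0.026, let-7c-5p 0.052, let-7f-5p 0.044, miR-100-5p 0.0071, miR-125a-5p 0.020, miR-26b-5p 0.0072 and miR-181a-5p 0.035, and the shorter probes of let-7b-5p, let-7e-5p and let-7f-5p were 0.033, 0.00074 and 0.0098. With no scaling, let-7a-5p was 0.046, let-7c-5p 0.072, let-7f-5p 0.064, miR-99a-5p 0.0042, miR-100-5p 0.027, miR-125a-5p 0.040, miR-200b-3p 0.00022, miR-26b-5p 0.027 and miR-181a-5p 0.055, and the shorter probes of let-7b-5p, let-7c-5p, let-7e-5p and let-7f-5p were 0.053, 0.0023, 0.021 and 0.030 and the longer let-7d-5p probe 0.019. Spike-in scaling gave let-7b-5p -0.025 and let-7e-5p -0.022. Normexp gave let-7c-5p 0.0025. Log averaging gave let-7b-5p -0.00045, let-7e-5p -0.0030 and miR-100-5p 0.0016. The brightest probe gave let-7c-5p 0.030 and let-7f-5p 0.00089. The median of spots gave let-7b-5p -0.0063, let-7e-5p -0.0028 and the longer let-7f-5p probe -0.017. The deposited ratio table gave let-7a-5p 0.0037, let-7c-5p 0.030, let-7f-5p 0.022 and miR-181a-5p 0.012. Quantile normalization gave let-7b-5p -0.13, let-7d-5p 0.0011, let-7e-5p -0.091, miR-99b-5p -0.10 and miR-200b-3p 0.054. Cyclic loess gave let-7a-5p 0.069, let-7c-5p 0.086, let-7f-5p 0.086, let-7a-1-3p 0.00016, miR-100-5p 0.010, miR-125a-5p 0.0064 and miR-181a-5p 0.027.

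Leaving out 1 array gave ranges of -0.027 to 0.043 for let-7b-5p, -0.029 to 0.025 for let-7c-5p, -0.029 to 0.053 for let-7e-5p, -0.033 to 0.012 for let-7f-5p, -0.018 to 0.084 for miR-99b-5p, -0.080 to 0.013 for miR-125a-5p and -0.049 to 0.031 for miR-181a-5p. For probes the ranges were -0.050 to 0.015 (let-7b-5p shorter), -0.010 to 0.062 (let-7b-5p longer) and -0.021 to 0.027 (let-7f-5p longer).

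Samples could not be paired by their labels because the groups share only 1 replicate number. Slide column, which holds 1 array of each group, is a position on the slide and was used as a block. With 4 arrays a group, the 95% intervals given show the precision reached for each miRNA. They are not adjusted for the number of miRNAs tested, so those of let-7g-5p and let-7i-5p leave out 0 though the main fit called neither.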
